A study of Mus musculus with 22 samples.

Results

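The step from early-G1 to mid-G1 was followed here in cells that kept CTCF. Its members were all 6376 domain boundaries and all 16370 chromatin loops with deposited strengths, which are also all the boundaries and loops of the series, and each was compared between the early-G1 map and the mid-G1 map of cells that received no auxin. Of the 22 Hi-C libraries of the series, 5 were merged by the authors into these 2 maps, 2 for early-G1 and 3 for mid-G1. The cells were G1E-ER4, a subline of the mouse erythroblast line G1E, which lacks GATA1. In every cell used here both CTCF alleles carried a C-terminal AID-mCherry tag (an auxin-inducible degron with a red fluorescent protein) and a retrovirus supplied the auxin receptor OsTiR with GFP, with a mitotic degron added to that construct only in the cells used for ana/telophase, so the -auxin cells were tagged cells with intact CTCF and not the unmodified parental line. Cells were arrested in prometaphase with nocodazole and released for 60 min (early-G1) or 120 min (mid-G1), and cells with a 2N DNA content and an mCherry signal were then sorted. Cells labeled as released for 0 min (prometaphase) and 30 min (ana/telophase), and cells treated with auxin at all 4 times, are used below for values beside those of this step, and the ana/telophase map also to sort boundaries by strength and as a condition on the loops described singly. The ana/telophase map thus comes from differently transduced cells, sorted at a 4N DNA content with reduced GFP, and steps into and out of it also compare these cells. The tables hold contact strengths and no RNA, so the erythroblast label was not checked against marker genes.

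CTCF is a zinc-finger protein that binds DNA at an oriented motif. Cohesin, a ring-shaped complex, is thought to extrude chromatin loops until it meets CTCF, which leaves loops between CTCF sites that point toward each other and boundaries that separate neighboring domains. During mitosis these structures are largely lost, and they are rebuilt as cells enter G1. Loops also join cis-regulatory elements (CREs), which are promoters and enhancers, to one another. In the deposited categories, structural loops have CTCF and cohesin at both anchors and CREs at no more than one, dual-function loops have both at both anchors, CRE loops have CREs at both anchors and CTCF with cohesin at no more than one, and the remaining loops are uncategorised.

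The merged map gave a single value for every boundary and loop, so no difference below has a replicate error and none was tested. The error given with a median is an SD taken over the medians of up to 20 chromosomes, those with at least 5 sites, and shares carry 95% Wilson intervals. Both describe the spread over sites and counting error, not the spread between cultures. The contact counts behind each value are not in the tables. Boundary strength (ΔIS) is the highest insulation score within 120 kb of a boundary minus the score at the boundary, and loop strength is the observed contact frequency over that expected from the surrounding pixels. Changes are log2 of mid-G1 over early-G1 strength, and a change is called large where it reaches 0.32 on this scale in either direction.

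Boundaries were stronger in mid-G1 than in early-G1. Over the 4 maps without auxin, taken in order of time after release, the median boundary strength was 0.0937, 0.277, 0.422 and 0.499. The median log2 change from early-G1 to mid-G1 was 0.19 (SD 0.045 over 20 chromosomes), and 4640 of 6376 boundaries, 72.8% (71.7 to 73.9), were stronger in mid-G1. Past the limit for a large change, 2227 boundaries were stronger, 34.9% of all, and 548 were weaker, 8.59% of all. The order of the boundaries changed little, with a Spearman rank correlation of 0.97 between both maps over all boundaries. Every chromosome had a median above 0, from 0.12 on chromosome 17 to 0.31 on chromosome X. On chromosome X the 346 boundaries had a median strength of 0.223 before and 0.312 after the step, so they were weaker than the autosomal boundaries (0.434 and 0.515) in both maps and had the larger relative change. The same step with auxin gave a median log2 change of 0.059 (SD 0.026). Boundary positions had been moved by the authors to insulation minima of the mid-G1 map without auxin. This can favor a higher strength in that map over early-G1 and over the maps with auxin, and its part was not tested.

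The boundaries differed in how much of their strength came in this step. The authors sorted them into 5 clusters by z-scores of their strengths, using the maps after mitosis with and without auxin and so both maps compared here, so the clusters describe the pattern and are no independent evidence of it. Cluster1, with 1300 boundaries, had median strengths of 0.301 and 0.422 in the 2 maps and a median log2 change of 0.41 (SD 0.085), and 91.2% of its boundaries were stronger in mid-G1. Cluster2 (2036 boundaries) had a median change of 0.14 (SD 0.041) and cluster3 (1731) one of 0.11 (SD 0.052). Both were already strong in early-G1, with median strengths of 0.774 and 0.515. Of the total gain in mean strength from prometaphase to mid-G1, 27.3% (SD 3.67 over chromosomes) came after early-G1 in cluster1, 10.3% (SD 2.01) in cluster2 and 8.54% (SD 3.85) in cluster3. Cluster1 was thus the group with the most of its gain still to come at early-G1. Cluster4 (590) and cluster5 (719, described by the authors as mostly spurious) stayed weak, with mid-G1 medians of 0.102 and 0.0738. Their log2 changes were wide, with 41.0% and 48.1% stronger and 26.8% and 28.0% weaker by a large change.

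**Figure D1:**
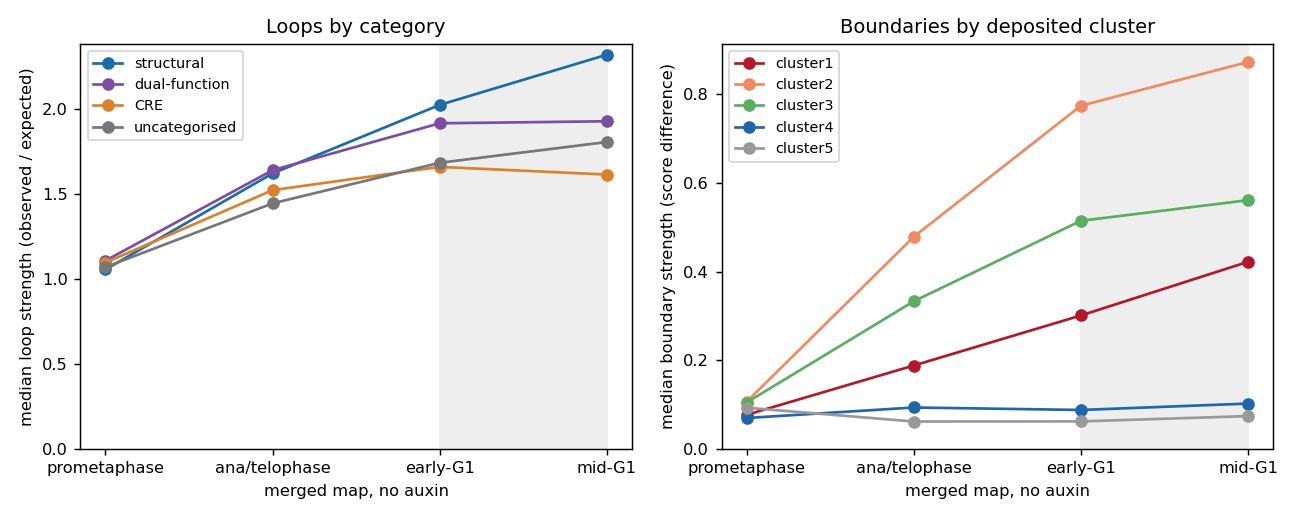
Median loop strength (observed over expected contacts, left) by loop category and median boundary strength (insulation score difference, right) by deposited cluster in the 4 merged maps without auxin, with the step from early-G1 to mid-G1 shaded. Structural loops went from 2.03 to 2.32 across the shaded step while dual-function loops stayed at 1.92 and 1.93 and CRE loops were at 1.66 and 1.62.

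Strength in ana/telophase, a map that does not enter the ratio, also ordered the boundaries. From the quartile weakest in ana/telophase to the strongest, the median log2 changes were 0.33 (SD 0.15), 0.31 (SD 0.065), 0.20 (SD 0.050) and 0.080 (SD 0.037), with 1594 boundaries in each. The quartile strongest in ana/telophase had the smallest median change. In the weakest quartile 22.4% were weaker in mid-G1 by a large change, against 1.32% in the strongest, so the ratios of the weakest boundaries also scattered most.

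Loops at a boundary went along with its change. Of the boundaries, 2889 had an anchor of a structural or dual-function loop within 20 kb, and their median strengths were 0.745 and 0.851, a median log2 change of 0.18 (SD 0.044). The 501 boundaries with a CRE loop anchor and neither of the other kinds had a median change of 0.15 (SD 0.062), and the 294 with only an uncategorised loop had 0.14 (SD 0.11). The 2692 boundaries with no loop anchor were weak, 0.124 and 0.155, with a median change of 0.24 (SD 0.073). By a large change, 1.90% (1.47 to 2.47) were weaker at structural or dual-function anchors, 6.19% at CRE anchors, 6.80% at uncategorised anchors and 16.4% (15.1 to 17.9) without a loop, against 8.59% of all boundaries. These groups also differ in strength, and weak boundaries scattered most, so the part of strength in these shares was not tested. Among the 2889, the boundaries whose structural and dual-function loops gained least (lowest quartile, median loop change -0.047) had a median change of 0.085 (SD 0.068), and those whose loops gained most (highest quartile, 0.40) had 0.28 (SD 0.082). Boundary and loop values come from the same contacts at the same places, so this is a description and not independent agreement. The early-G1 median strengths of the lowest and highest quartile were 0.856 and 0.568, so they differ in strength too, and its part was not tested. With auxin the median changes of the boundaries in these 2 quartiles were 0.0050 (SD 0.076) and 0.095 (SD 0.089), in the same order. The 944 boundaries whose bin held the transcription start of a protein-coding gene had a median change of 0.15 (SD 0.071), against 0.20 (SD 0.048) for the others.

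Among boundaries outside cluster5 with at least 0.5 in the higher and 0.1 in the lower map, those with the largest changes show what such values look like. At chr6:18770001-18780000, cluster1, with no protein-coding gene in the bin, the strengths over the 4 maps were 0.155, 0.184, 0.157 and 0.519, a log2 change of 1.73. With auxin the early-G1 and mid-G1 values were 0.181 and 0.249. Without auxin the first 3 values are close to each other and only the mid-G1 value stands above them. The boundary was named for this rise, and boundaries had been moved to insulation minima of that map, so the values do not show when its strength arose. The boundary at chr16:21750001-21760000, also cluster1 and without a gene, had 0.0826, 0.191, 0.180 and 0.519 in the same order of maps, and 0.187 and 0.151 with auxin. Under the same limits, the largest change downward was at chr11:107570001-107580000, a cluster3 boundary holding the transcription start of Cacng1, which encodes a calcium channel subunit of skeletal muscle. Its values were 0.168, 0.324, 0.529 and 0.214, a log2 change of -1.31, and 0.554 and 0.353 with auxin. It peaked in early-G1 in cells with and without auxin. At chr16:49670001-49680000, a cluster2 boundary with no gene, the strengths of this step were 0.511 and 0.256 without auxin and 0.372 and 0.195 with auxin, so both treatments gave the lower value in mid-G1.

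Loops went different ways by category. Over all 16370 loops the median strengths were 1.81 and 1.90, with a median log2 change of 0.063 (SD 0.015), and 61.6% (60.9 to 62.4) were stronger in mid-G1. By a large change, 2236 loops were stronger, 13.7% of all, and 797 were weaker, 4.87% of all. Behind these numbers stood gains of structural loops, smaller gains of uncategorised loops, little net change of dual-function loops and slight losses of CRE loops.

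The 4837 structural loops had median strengths of 1.06, 1.62, 2.03 and 2.32 over the 4 maps. The median log2 change in this step was 0.18 (SD 0.034), with a median above 0 on all 20 chromosomes (0.14 to 0.26), and 3971 of the loops, 82.1% (81.0 to 83.2), were stronger in mid-G1. By a large change, 26.6% were stronger and 0.972% weaker, against 13.7% and 4.87% of all loops. Of their rise in mean strength from prometaphase to mid-G1, 25.1% (SD 3.30) came after early-G1, the smallest part, after 44.7% and 30.2% in the steps before. Mid-G1 was the map with the highest value for 81.5% of them. With auxin the same loops had medians of 1.23 and 1.28 and a median log2 change of 0.043 (SD 0.022).

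The 3370 dual-function loops had medians of 1.92 and 1.93, a median log2 change of 0.019, which is less than its SD of 0.022. Of these, 53.9% (52.2 to 55.5) were stronger in mid-G1, 6.77% were stronger and 5.43% weaker by a large change, and only 5.84% (SD 3.19) of the rise in their mean strength came after early-G1. The medians were above 0 on 15 of 20 chromosomes. With auxin the median change was -0.039 (SD 0.037). Dual-function loops, which like structural loops have CTCF and cohesin at both anchors, thus had close to their mid-G1 strength by early-G1.

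The 4642 CRE loops were at a median of 1.66 before and 1.62 after the step. Their median log2 change was -0.040 (SD 0.024), below 0 on 19 of 20 chromosomes, and 42.1% (40.6 to 43.5) were stronger in mid-G1. By a large change 4.70% were stronger and 9.52% weaker, so among large changes the falls outnumbered the rises. The mean strength of CRE loops went from 1.79 to 1.75. Early-G1 held the highest of the 4 values for 40.8% of CRE loops and mid-G1 for 35.0%, whereas for dual-function loops mid-G1 was highest in 50.1% and for structural loops in most. With auxin the median change was -0.067 (SD 0.021). Counting only the CRE loops that were called without auxin, the median change was -0.014. The other 1410 CRE loops were called only with auxin and had a median change of -0.10 (SD 0.028). The 3521 uncategorised loops had medians of 1.68 and 1.81 and a median change of 0.092 (SD 0.024).

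The zero of this scale is set by how the maps were balanced and how expected contacts were modeled. Relative to the uncategorised loops the median change was 0.090 for structural loops, with 67.2% above, -0.073 for dual-function loops, with 35.3% above, and -0.13 for CRE loops, with 24.8% above. This subtracts the same value from every loop, so it moves the zero and not the order of the categories, and the small positive median of dual-function loops lies below the new zero. The balance of their large changes turned too, from 228 stronger and 183 weaker to 115 and 378, so neither direction is firm for this category.

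**Figure D2:**
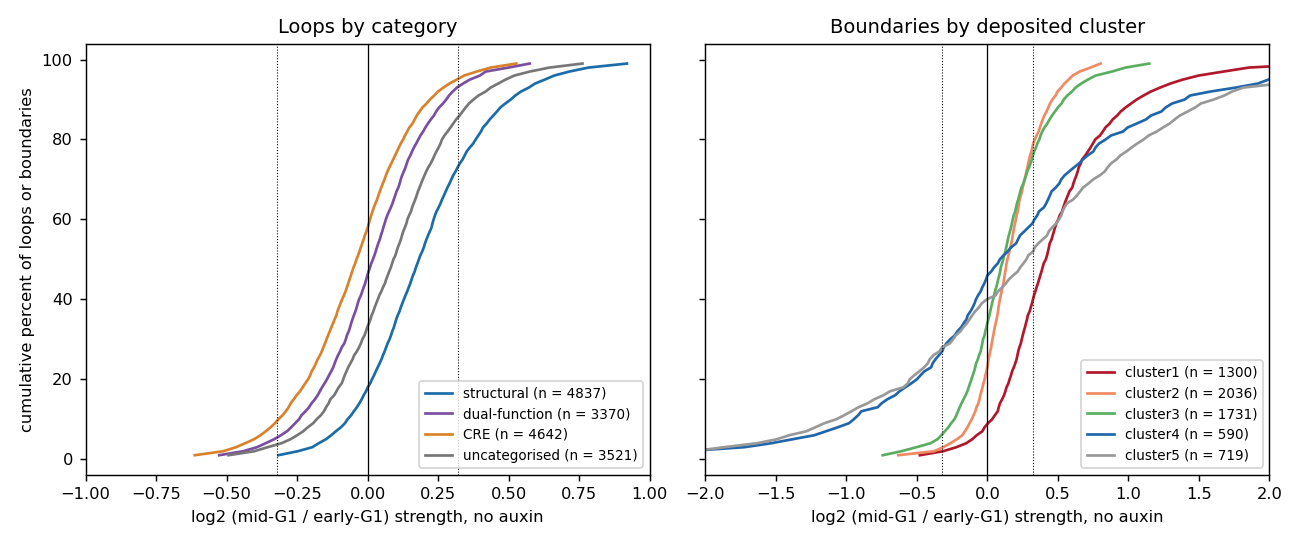
Cumulative percent of loops in each category (left) and of boundaries in each deposited cluster (right) against log2 of mid-G1 over early-G1 strength without auxin; dotted lines mark a log2 change of 0.32 either way. The curve of structural loops lies furthest right and that of CRE loops furthest left, with 82.1% of structural loops and 42.1% of CRE loops right of 0, and among the boundaries the curves of cluster4 and cluster5 spread most.

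The stage at which a loop was first called bears on these values, because a loop first called in early-G1 or mid-G1 was picked for being high in one of the maps compared. Loops first called in ana/telophase passed a call before either map, but the pixel at which a loop was measured was the most confident one over all stages and both treatments, so it may still have been chosen on one of the maps compared. Among these, the median log2 change was 0.17 (SD 0.038) for 717 structural loops, 0.030 (SD 0.035) for 945 dual-function loops, -0.053 (SD 0.041) for 938 CRE loops and 0.062 (SD 0.051) for 300 uncategorised loops. The shares stronger in mid-G1 were 84.1% (81.2 to 86.6), 56.6% (53.4 to 59.7), 38.9% (35.8 to 42.1) and 62.0% (56.4 to 67.3). The order of the categories was the same among loops that were already called before G1. Loops first called in mid-G1 had medians of 0.26 (structural), 0.13 (dual-function), 0.12 (CRE) and 0.19 (uncategorised), and loops first called in early-G1 had 0.10, -0.019, -0.070 and -0.0086, in each category the lower of both sets.

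Longer structural loops gained more. The median strength of the 754 structural loops of up to 100 kb was 1.43 and then 1.57, a median log2 change of 0.12 (SD 0.047). For the 1275 loops over 100 and up to 200 kb the change was 0.15 (SD 0.051), for the 1804 over 200 and up to 500 kb it was 0.18 (SD 0.034), and for the 1004 over 500 kb, with medians of 2.19 and 2.75, it was 0.29 (SD 0.083). The share stronger by a large change was 14.6% (12.2 to 17.3) in the shortest class and 45.2% (42.2 to 48.3) in the longest. Neighboring classes below 500 kb differed by less than their SD, and the class over 500 kb stood above the others by more than its own. In the longest class 32.8% (SD 4.60) of the rise in mean strength came after early-G1, against 21.4% (SD 5.17) in the shortest. Among structural loops first called in ana/telophase the 4 medians were 0.16, 0.15, 0.17 and 0.27 from short to long, the last over 81 loops with an SD of 0.11.

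Size ordered the other categories differently. Dual-function loops had median changes of 0.037, 0.012, -0.0033 and 0.053 from the shortest to the longest class, each less than its SD. CRE loops had -0.035 (SD 0.033), -0.051 (SD 0.029), -0.061 (SD 0.028) and 0.0078 (SD 0.059), so that CRE loops between 200 and 500 kb had the lowest median and those over 500 kb had none beyond its SD. Uncategorised loops had 0.044, 0.086, 0.12 and 0.15 and so followed the order of structural loops at lower values. With auxin the structural loops had 0.011, 0.039, 0.048 and 0.078, with SDs of 0.064, 0.040, 0.035 and 0.069.

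**Figure D3:**
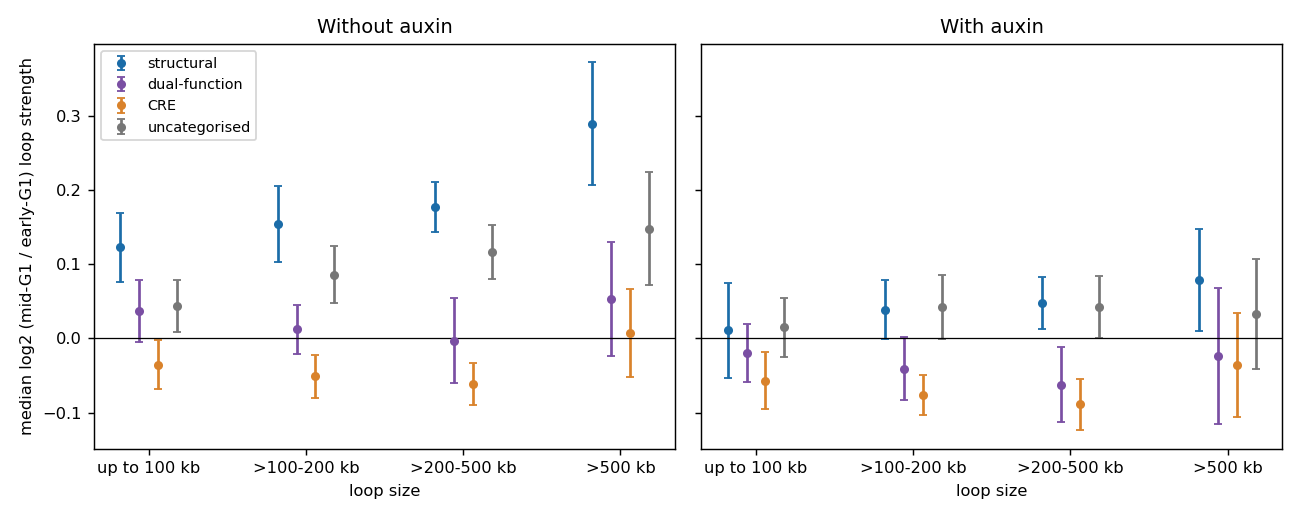
Median log2 of mid-G1 over early-G1 loop strength by loop size and category, without auxin (left) and with auxin (right); error bars are the SD of single-chromosome medians. Without auxin the structural loops lie highest in every size class, from 0.12 to 0.29, and with auxin no structural median is above 0.08.

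Loops that share an anchor were set against each other, since they have the same chromosome neighborhood on one side. Structural loops with a 10 kb summit formed 1940 pairs with the same bin at 1 anchor, at 1167 anchors. The longer loop had the larger log2 change in 1031 pairs, 53.1% (50.9 to 55.4), with a median difference of 0.019 (SD 0.050). Where the longer loop was at least 2 times as long, it had the larger change in 425 of 735 pairs, 57.8% (54.2 to 61.3), with a median difference of 0.052 (SD 0.11). Where it was under 2 times as long the share was 50.3% (47.5 to 53.1). With auxin the shares were 52.9% over all pairs, with a median difference of 0.022, and 53.1% at 2 times or more, so over all pairs they were much the same with and without auxin. The median differences without auxin were less than their SD. Pairs at 1 anchor are not independent of each other.

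The number of anchors at a promoter ordered the loops within categories. For loops with a 10 kb summit, a promoter anchor was taken as a summit bin with the transcription start of a protein-coding gene. Structural loops had a median log2 change of 0.21 (SD 0.037, 2532 loops) with no promoter anchor, 0.17 (SD 0.052, 1172 loops) with 1 and 0.12 (SD 0.071, 153 loops) with 2. Dual-function loops had 0.064 (SD 0.038, 913 loops), 0.024 (SD 0.044, 1160 loops) and -0.031 (SD 0.046, 726 loops). CRE loops had -0.0018 (SD 0.042, 915 loops), -0.042 (SD 0.037, 1437 loops) and -0.10 (SD 0.045, 1153 loops). In all 3 categories the median went down with each promoter anchor. The share of CRE loops stronger in mid-G1 was 49.6% (46.4 to 52.9), 42.2% (39.7 to 44.8) and 32.1% (29.5 to 34.8). Promoter to promoter loops of the CRE category were lower in mid-G1 in each size class, with medians of -0.099, -0.097, -0.12 and -0.036 from short to long, while CRE loops with no promoter anchor had -8.0e-05, -0.00054, -0.028 and 0.047. The difference was least firm over 500 kb, where the SD was 0.117 with 2 promoter anchors. Among loops first called in ana/telophase the CRE medians were -0.010, -0.059 and -0.091 and the dual-function medians 0.074, 0.036 and -0.0070 for 0, 1 and 2 promoter anchors, but the structural medians were 0.18, 0.17 and 0.18. With auxin the CRE medians were -0.037, -0.071 and -0.11, so the order over promoter anchors was also present in cells treated to deplete CTCF.

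Over all CRE loops, those crossed by structural loops had the lower median change. A CRE loop was counted as crossed where a structural loop had 1 anchor inside it and the other outside, which held for 2227 of 4642 CRE loops, 48.0% (46.5 to 49.4). Crossed CRE loops had medians of 1.65 and 1.57, a median log2 change of -0.069 (SD 0.044), and 37.7% (35.7 to 39.8) were stronger in mid-G1. CRE loops not crossed had medians of 1.67 and 1.65, a change of -0.018 (SD 0.026), and 46.0% (44.1 to 48.0) were stronger. The medians differed by -0.051 (SD 0.039), with the crossed loops lower on 19 of 20 chromosomes. Among CRE loops called without auxin the difference was -0.024, which is less than that SD. Crossed loops were longer, with a median size of 320 kb against 140 kb, so the comparison was also made by size: the differences were -0.080, -0.084, -0.050 and -0.027 from the shortest to the longest class. Large falls were found in 12.9% of the crossed and 6.42% of the other CRE loops, against 442 of all 4642 CRE loops and 4.87% of all loops. CRE loops crossed by 1, by 2 to 4 and by 5 or more structural loops had median changes of -0.047 (SD 0.053), -0.074 (SD 0.054) and -0.15 (SD 0.071). These shares and medians also count the CRE loops called only with auxin. Among CRE loops first called in ana/telophase the difference was -0.020, and with auxin it was -0.027 over all CRE loops and -0.026, -0.036, -0.028 and -0.036 by size, so that over 500 kb it was no smaller than without auxin.

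**Figure D4:**
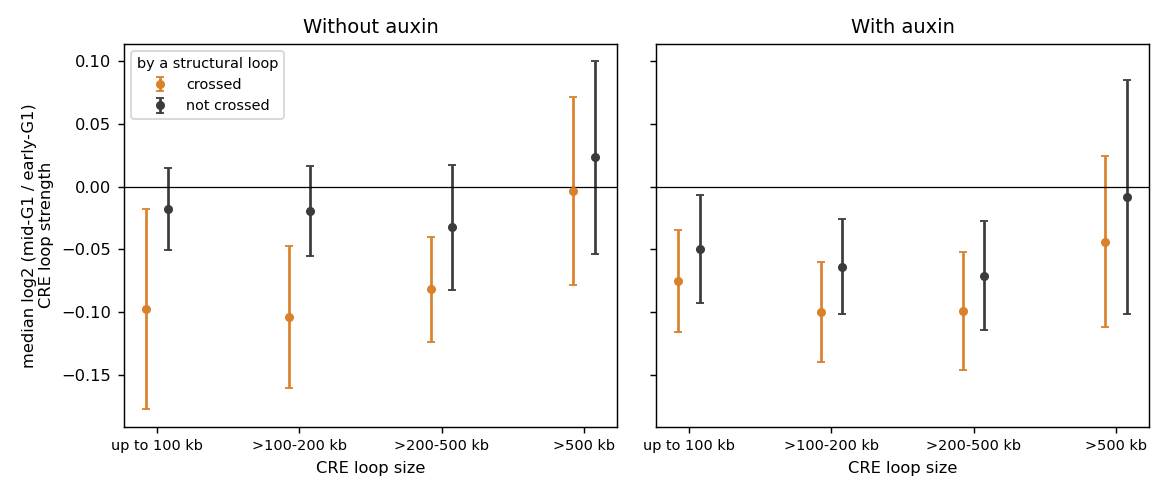
Median log2 of mid-G1 over early-G1 strength of CRE loops crossed or not crossed by a structural loop, by CRE loop size, without auxin (left) and with auxin (right); error bars are the SD of single-chromosome medians. Without auxin the crossed loops lie lower in each size class, by 0.080 in the shortest and 0.027 in the longest, with error bars that overlap.

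The CTCF motif was looked for at the anchors, since the orientation of this motif is the sequence feature that loop anchors are known for. The 9 letters CNAGGGGGC, the core of the motif, were searched on both strands of each 10 kb summit bin in the mm9 assembly (NCBIM37), and CNAGGNGGC, which contains every match of the first, was the looser alternative. The first was found in 12.6% of 255585 bins of the genome and the second in 48.9%, so a match in a bin is a description and not a binding site. The structural loops with a transcription start at an anchor and the largest gains in this step are shown with the match nearest the bin center in capitals, on the strand that reads the motif, and a loop near the category medians is shown beside them:
Rarres1 anchor, chr3:67319567-67319596, minus strand: gagtgtgccctCAAGGAGGCgccccactgt
Iqcj anchor, chr3:67857659-67857688, minus strand: catgtggaacaCTAGGGGGCggtgtaactc
downstream anchor of the Tmem14a loop, chr1:22258526-22258555, minus strand: tttctgaagctCCAGGTGGCctttggaagg
upstream Ahcyl2 anchor, chr6:29715903-29715932, plus strand: tcctcacatgCCAGGTGGCtgcactgtagc
downstream anchor of the Ahcyl2 loop, chr6:30303133-30303162, plus strand: cctttcctccCCAGGAGGCttccagtcaga
The Iqcj match is of the strict motif and the others of the looser one. The loop from the Asb9 gene to Gemin8 on chromosome X, which gained most, held neither form in either bin, nor did the Tmem14a bin.

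Over all structural loops with a 10 kb summit, 25.7% of 5988 anchor bins held CNAGGGGGC, against 28.4% of 4141 bins of dual-function loops, 22.2% of 5422 bins of CRE loops and 12.6% of the genome. A forward match upstream with a reverse match downstream, the arrangement in which the motifs point toward each other, was found in 2.98% (2.49 to 3.57) of structural loops, and the opposite arrangement in 1.63% (1.28 to 2.08). For dual-function loops the shares were 3.57% (2.95 to 4.33) and 2.43% (1.92 to 3.07), and for CRE loops 1.31% (0.985 to 1.75) and 1.43% (1.08 to 1.88). The match was not more frequent at the loops that gained: 23.9% of 1977 anchor bins of structural loops stronger by a large change held it, 26.9% of 4420 bins of loops between the limits and 34.8% of 89 bins of loops weaker by a large change. Leaving out the structural loops that held both arrangements, the 108 with the motifs pointing toward each other had a median log2 change of 0.17 (SD 0.083), the 56 with the opposite arrangement had 0.17 (SD 0.125), and the 3686 with neither had 0.19 (SD 0.036).

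The 3 structural loops named for the largest gains spanned 540 kb or more and were first called in mid-G1. The loop from the Asb9 gene, which encodes a ubiquitin ligase adaptor, to the transcription start of Gemin8, a subunit of the SMN complex, joins chrX:160970001-160980000 with chrX:162600001-162610000 over 1630 kb. Its strengths over the 4 maps were 0.682, 1.21, 2.42 and 5.82, a log2 change of 1.27. With auxin it was 1.71 in early-G1 and 0.808 in mid-G1, so the mid-G1 value without auxin stands alone above the others. The loop whose anchor sequences are shown above joins the start of Rarres1, a retinoic acid responsive gene, at chr3:67310001-67320000 with an exon of Iqcj at chr3:67850001-67860000. Its values were 1.61, 1.68, 2.36 and 5.16 without auxin, and 0.634 and 1.28 in early-G1 and mid-G1 with auxin. This loop lies on chromosome 3, which carries a translocation in these cells according to the methods of the study. Between the start of Tmem14a at chr1:21200001-21210000 and chr1:22250001-22260000, where no protein-coding gene lies, the loop had 0.648, 1.5, 2.80 and 6.06 over the maps, and 0.881 and 0.992 with auxin. All 3 more than doubled their early-G1 value in mid-G1 without auxin.

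A structural loop near the category medians looked less dramatic. The loop from the start of Ahcyl2, which encodes a homolog of an S-adenosylhomocysteine hydrolase, at chr6:29710001-29720000 to chr6:30300001-30310000 had strengths of 1.65, 1.57, 2.04 and 2.32, a log2 change of 0.19, and 1.33 and 1.12 with auxin. The structural loops named for falls had to end below their ana/telophase value too, and larger falls that did not are left out here, such as that of a Runx1 loop from 2.61 to 1.49. Joining the start of Sema3b, a secreted semaphorin, at chr9:107500001-107510000 with an exon of Rbm5, a splicing regulator, at chr9:107640001-107650000, a loop had 1.06, 1.62, 1.91 and 1.4, a log2 change of -0.45, and 1.87 and 1.82 with auxin. The loop from an exon of Smc3, which encodes a core subunit of cohesin, at chr19:53720001-53730000 to the start of Shoc2, a scaffold of RAS signaling, at chr19:54010001-54020000 had 0.849, 1.79, 2.1 and 1.62, and 2.17 and 2.08 with auxin. Both had their lower value in mid-G1 without auxin, while the values with auxin stayed within 0.1 of each other.

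Dual-function loops held both large gains and large losses around a median near 0. The loop from the start of Clspn, which encodes the checkpoint adaptor claspin, at chr4:126230001-126240000 to an exon of Dlgap3, a postsynaptic scaffold gene, at chr4:126910001-126920000 had strengths of 1.26, 2.40, 1.99 and 4.43, a log2 change of 1.16, and 1.39 and 2.08 with auxin. A loop from the start of Gcnt1, a glycosyltransferase gene, at chr19:17400001-17410000 to an exon of BC016495 at chr19:18720001-18730000 went the other way, with 1.89, 3.05, 4.94 and 2.18, a log2 change of -1.18, and 3.73 and 2.95 with auxin. It was highest in early-G1 in both treatments. A loop from a bin with the starts of Dpcd and Poll, a DNA polymerase gene, at chr19:45630001-45640000 to the start of Nfkb2, a subunit gene of NF-kB, at chr19:46380001-46390000 had 0.804, 1.26, 1.97 and 1.16, and 2.03 and 1.80 with auxin. A loop near the medians, from the bin with the starts of Gtf2ird2 and Wbscr16 at chr5:134650001-134660000 to an exon of the transcription factor gene Gtf2ird1 at chr5:134860001-134870000, had 0.857, 1.97, 1.94 and 1.93, so it was flat from ana/telophase on.

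Among CRE loops, the large gains described here spanned over 1000 kb. The loop from the start of Rragc, a GTPase gene of the mTORC1 pathway, at chr4:123590001-123600000 to an exon of Gnl2, a nucleolar GTPase gene, at chr4:124710001-124720000 had 1.55, 2.32, 1.31 and 2.84, so its early-G1 value was the lowest of the 4, and 2.19 and 2.1 with auxin. No structural loop crossed it. Between the starts of Rbm15, an RNA-binding protein gene, at chr3:107130001-107140000 and of Taf13, a subunit gene of the general transcription factor TFIID, at chr3:108370001-108380000 the loop had 1.65, 1.65, 1.47 and 2.80, a log2 change of 0.93, and 2.39 and 2.76 with auxin. It lies on chromosome 3, with the translocation named above, was crossed by 5 structural loops and was higher in mid-G1 than in early-G1 with and without auxin. Of the CRE loops with large falls, the loop between the start of Hnrnpu, which encodes a nuclear RNA-binding protein, at chr1:180260001-180270000 and the bin with the starts of Cnst and Tfb2m, a mitochondrial transcription factor gene, at chr1:181470001-181480000 had 1.60, 2.34, 2.27 and 1.251, a log2 change of -0.86, and 2.12 and 2.29 with auxin. It was crossed by 8 structural loops. The loop from an intron of St3gal5, which encodes the ganglioside GM3 synthase, at chr6:72050001-72060000 to the start of Vamp5 at chr6:72330001-72340000 had 1.76, 2.13, 1.54 and 0.850, and 2.20 and 1.84 with auxin, and it was crossed by 2. In these 2 loops the mid-G1 value without auxin was the lowest of the 4, below that in prometaphase. A CRE loop near the medians, with the start of the translation factor gene Eif5 at chr12:112770001-112780000 and its other anchor at chr12:112670001-112680000, had 1.15, 1.80, 1.64 and 1.61.

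Loops at the promoters of erythroid regulators held both gains and losses. Of 22 listed genes, 18 had a loop with their transcription start in a summit bin, and 44 such loops were called without auxin. By a large change 3 of these were stronger and 5 weaker, 18 were stronger at all, 40.9%, and the median log2 change was -0.042. For all 7265 loops called without auxin with a transcription start in a summit bin, 800 were stronger by a large change and 5.00% weaker, 59.8% were stronger at all and the median was 0.050. By category, 6 of 10 structural, 8 of 14 dual-function and 3 of 16 CRE loops of the list were stronger in mid-G1, against 80.2%, 53.8% and 45.2% of the promoter loops of these categories called without auxin. The strongest loop of Zfpm1, which encodes the GATA1 cofactor FOG1, joins it with Abcb10, a mitochondrial transporter gene of heme synthesis, and had strengths of 2.62, 2.36 and 3.8 from ana/telophase on. That of Sox6, a repressor of embryonic globin genes, had 2.01, 2.32 and 3.13, and that of Klf13, a Krüppel-like factor gene, had 1.90, 1.75 and 2.24. At Cbfa2t3, which encodes the corepressor ETO2, the strongest loop had 1.66, 3.18 and 1.90, a log2 change of -0.75. Of the 8 loops of Runx1, a transcription factor gene of early hematopoiesis, 3 were weaker by a large change, with log2 changes down to -0.81, and 2 were stronger at all. The strongest loops of Gata2 (2.57 and then 2.74), Tal1 (2.06 and 2.11), Lmo2 (3.20 and 3.26), Bcl11a (1.38 and 1.43), Stat5a (1.82 and 1.95) and Foxo3 (2.91 and 2.70) changed by less than 1.1-fold. Those of Ldb1 (1.69 and 1.53), Etv6 (1.84 and 1.64) and Runx1 (2.78 and 2.37) were lower in mid-G1, and that of Klf3 (3.44 and 3.86) was higher.

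Other gene lists gave the following counts. For the list of heme, globin and red cell genes, 28 loops were called without auxin, 2 of them structural, 14 dual-function, 11 CRE and 1 uncategorised. None had a large change in either direction, against 800 stronger and 363 weaker of the 7265 promoter loops, and 14 of the 28 were stronger in mid-G1, 2 of the structural, 7 of the dual-function and 5 of the CRE loops, so that the shares by category are to be read against the 80.2%, 53.8% and 45.2% above. For example, the loop of Hba-a2, an alpha-globin gene, with Rhbdf1 had 1.88 and 1.97, and that of Epor, the erythropoietin receptor gene, had 2.51 and 2.24. For the G1 progression genes, 3 of 31 loops were stronger and 1 weaker by a large change, 9.68% and 3.23% against 800 of 7265 and 5.00% among all promoter loops, so both shares were near the background. Their median was -0.056, and 8 of 31 were stronger at all, 25.8% against 59.8%. These were 3 of 3 structural, 4 of 11 dual-function and 1 of 17 CRE loops, against 80.2%, 53.8% and 45.2% of the promoter loops of these categories. The list held few structural loops, so the background over all promoter loops is of another mix. Its dual-function and CRE shares were also below those of their categories. Myc, the growth regulator gene, had its strongest loop at 5.46 and then 4.38, while 2 structural loops of Myc were among the 3 gains. The structural loop from Junb, an early response gene, to Abcc12 was the other, with 1.04 and 2.1. For developmental Polycomb targets, 10 of 16 loops were stronger, 62.5% against the 59.8% of all promoter loops. These included 8 of 9 structural loops, against 80.2% of structural promoter loops, with those of Hoxb9 (2.68 and 3.24) and Hoxd9 (2.64 and 3.03) as examples. None of the 4 CRE loops, all of Pax6, a developmental transcription factor gene, was stronger, with the strongest at 3.39 and 2.98. For genes of cohesin and its partners, 7 of 12 were stronger, 58.3% and close to that background, and 1, at the cohesin regulator gene Pds5b, was stronger by a large change, 8.33% against the 800 of 7265. Genes were matched by symbol, so listed genes that the annotation holds under an older symbol were not counted in these lists.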

How the data were processed

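In situ Hi-C libraries (DpnII) were, per the methods of the study, mapped to mm9 with HiC-Pro 2.10.0, merged over replicates and balanced by the authors with juicer_tools 1.13.02. The deposited boundary strengths are a signal, the insulation score difference at boundaries called with rGMAP 1.4 and moved to insulation minima of the mid-G1 map, so their placement used one of the maps compared. The deposited loop strengths are a ratio, observed over donut-expected contacts averaged over a summit pixel and its 8 neighbors, for loops called at 10 kb or 25 kb.

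Here log2 ratios, medians, SDs over single-chromosome medians (5 or more sites each) and Wilson intervals were computed in Python 3.11.15 with pandas 2.3.3. No filter or pseudocount was used, and no significance test. Scripts were tested on simulated data. Genes are the protein-coding genes of GENCODE vM1, a bin is given 1-based, and 0 sites lay outside the chromosomes of NCBIM37.

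Named loops are, per category, the 3 largest changes each way among loops with a 10 kb summit, called without auxin, with a transcription start at an anchor, at least 1.5 in the higher and 0.5 in the lower map, and beyond ana/telophase in the same direction, plus the loop nearest the category medians. Of these 21 loops 15 are described, and the others are not reported here. Named boundaries are the 3 largest each way with at least 0.5 and 0.1 outside cluster5; 4 of these 6 are described. Members, lists and rules were chosen with earlier results of these data known. Alternatives were other folds, filters, pseudocounts, loop sets and distances.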

Additional observations from a re-analysis of the deposited data

How the results depend on the processing

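No paired analysis was possible because the tables used here hold values of replicate-merged maps only, and for the same reason no replicate was left out. Contact maps of single replicates were not analysed here. Of the medians in the alternatives computed, those that changed sign were of dual-function loops (centered, over all; first called in ana/telophase, over 200 kb) and of CRE loops over 500 kb, each with a reported value smaller than its SD. At 1.1-fold the large changes numbered 3588 stronger and 982 weaker for boundaries and 6010 and 2927 for loops, and at 1.5-fold 1086 and 309 for boundaries and 474 and 99 for loops. With a pseudocount of 0.1, 278 boundaries were weaker by a large change, and without cluster5 347 were. Where both maps averaged at least 0.2, 1315 boundaries were stronger and 130 weaker. Where loops averaged at least 1.5, 448 were weaker, and the medians were 0.096 over all loops, -0.011 for CRE and 0.12 for uncategorised loops. Among loops called without auxin 506 were weaker, and the medians were 0.090 over all and -0.014 for CRE loops, of which 1305 were crossed. The log2 ratio of mean strengths was 0.10 over all, 0.23 for structural and 0.12 for uncategorised loops. Centered on uncategorised loops, the medians were 0.090 (structural), -0.073 (dual-function) and -0.13 (CRE). Uncategorised loops first called in ana/telophase had 0.062, and structural loops over 500 kb with 10 kb summits had 0.38. CNAGGNGGC was found in 71.1% (structural), 75.7% (dual-function), 67.9% (CRE) and 64.3% (uncategorised) of anchor bins. The cause of these shifts was not tested. The SD over chromosomes does not include the spread between cultures.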
